A study of Homo sapiens with 4 samples.

Results

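The genes described here encode part of the IkB kinase (IKK) complex and of its upstream regulators. They are CHUK, which encodes the kinase IKKa, IKBKG, which encodes the scaffold NEMO, the adaptor genes TAB2 and BCL10, and CYLD, the gene of a deubiquitinase. They are 5 of the 4604 genes named on the array, and were followed through every probe that the platform annotation assigns to them, 12 of 15246 probes. CHUK had 2 probes, IKBKG 1, TAB2 4, BCL10 4 and CYLD 1. Of the 12 probes, 8 had a value on all 4 arrays of the series, and 4 (3 of TAB2 and 1 of BCL10) had a value on only some arrays.

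OCI-Ly3 is an established human line of the activated B-cell type of diffuse large B-cell lymphoma, used here with a short hairpin RNA against IKKa, and was hybridised on 4 two-colour arrays. On each array cDNA of cells given doxycycline at 20 ng/ml carried Cy5 and cDNA of cells without doxycycline carried Cy3, and no array had the dyes swapped. Without inhibitor there were 2 arrays, after 2 days and after 3 days of doxycycline, each set against untreated cells. With inhibitor there were 2 arrays on which both channels held cells given the IKKb inhibitor MLN120b at 12.5 uM. On one the inhibitor was present for 3 h after 2 days of doxycycline, and on the other for the last 24 h of 3 days of doxycycline. They are called the 2-day, 3-day, 3 h and 24 h arrays below. That doxycycline switches the hairpin on is read from the design, and the labels name neither the clone nor a control hairpin. Doxycycline itself and the hairpin cannot be told apart, because every array sets doxycycline-treated cells against cells without it.

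Every value is the log2 ratio of the 2 channels, taken as doxycycline over no doxycycline. The file states neither the base nor the direction. The direction is the likely one, from the usual order of Cy5 over Cy3 and from CHUK lying below 0, so the sign of CHUK is no separate check of the knockdown. Were the ratio the other way round, every sign given here would turn. A ratio holds no level, so the amount of any of these transcripts in the line, and its B-cell identity, could not be read from the file. The B-cell marker genes that were measured, 6 of 7 listed, had a median log2 ratio of -0.02 without and -0.09 with inhibitor and none passed the test. The arrays held values for 11722 to 14375 probes, and the spread of the ratios over genes, as a median absolute deviation, was 0.109 and 0.177 on the 2-day and 3-day arrays and 0.166 and 0.259 on the 3 h and 24 h arrays. Pearson correlations between arrays across 3589 genes ran from 0.468 to 0.748.

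In classical NF-kB signalling a receptor gathers adaptors and ubiquitin ligases, whose ubiquitin chains recruit both the TAK1 kinase, through its adaptor TAB2, and the IKK complex, through its scaffold NEMO. The complex holds the related kinases IKKa and IKKb on NEMO, and it marks the IkB inhibitors for destruction so that NF-kB can enter the nucleus. In B cells the antigen receptor feeds this route through BCL10 and MALT1, a route that is chronically active in many lymphomas of the activated B-cell type, and CYLD cuts the ubiquitin chains and so restrains the route. IKKa also acts in the alternative pathway, downstream of receptors such as the BAFF receptor.

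With inhibitor present, CHUK, TAB2 and CYLD were lower in doxycycline-treated cells, by 2.23-fold, 2.19-fold and 1.59-fold. The IKBKG ratio lay on the other side of 0, at 1.34-fold, and did not pass, and neither did that of BCL10. Thus 3 of 5 members passed at a Benjamini-Hochberg adjusted p under 0.05 in limma's moderated test, all lower, where 4.57% of 3589 genes passed, 3.04% as lower and 1.53% as higher. The members were chosen with earlier results of these data known, so the 2 shares are set side by side and are no test of enrichment. CHUK is also the hairpin's target, and its sign helped set the direction of the ratio. At an unadjusted p under 0.05 there were 4 members, IKBKG included, and 28.3% of genes. Without inhibitor no member and no gene (0%) passed in limma, and 2 members, CHUK and TAB2, had an unadjusted p under 0.05, as had 11.1% of genes. CHUK and TAB2 were more than 1.5-fold lower on both arrays without inhibitor, as were 0.919% of genes, and on all 4 arrays, as were 0.669%. For CHUK this rests on the mean of its 2 probes. Probe 28903_1 alone stood at -0.34 and -0.52 without inhibitor, where 1.5-fold is 0.585 in log2. For TAB2 the 1.5-fold rule was met by 1 of its 4 probes, the one with a value on every array. Over the 2 probes with a value on both arrays without inhibitor TAB2 stood at -0.18 and -0.16. CYLD joined CHUK and TAB2 on both arrays with inhibitor, where 2.40% of genes were more than 1.5-fold lower. Below 0 on all 4 arrays lay CHUK, TAB2 and CYLD and 25.8% of genes, and above 0 on all 4 lay IKBKG and BCL10 and 15.5% of genes. BCL10 did so by only 0.0027 on the 3 h array, where its probe 32470_1 stood at -0.41. The test was limited to 2 arrays a group, which are different time points and not repeats. The labels do not say that the arrays came from separate cultures, so each p reflects the spread among these 4 arrays and nothing wider. That spread had 2 residual and 4.98 prior degrees of freedom, so most of it was borrowed from all genes. CYLD and IKBKG had SDs of 0.01 to 0.02 in a group, yet both had an SE of 0.11.

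The upstream sequences of CHUK, TAB2 and CYLD are shown because these 3 genes passed as lower with inhibitor. Each is the 250 bases before the most upstream start of the gene in RefSeq (GRCh38.p14), read 5′ to 3′ on the strand of the gene. The windows are chr10:100229597-100229846 (minus strand) for CHUK, chr6:149317462-149317711 (plus strand) for TAB2 and chr16:50741836-50742085 (plus strand) for CYLD. Capitals mark matches, on either strand, to the kappa B motif, the ETS core CCGGAAGT, the GC box GGGCGG and the CCAAT box. No 2 of these motifs overlapped in the windows.
CHUK: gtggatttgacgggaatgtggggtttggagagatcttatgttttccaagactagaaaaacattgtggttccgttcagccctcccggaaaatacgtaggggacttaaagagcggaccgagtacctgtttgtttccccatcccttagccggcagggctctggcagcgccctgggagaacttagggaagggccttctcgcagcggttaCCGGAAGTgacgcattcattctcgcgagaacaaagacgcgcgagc
TAB2: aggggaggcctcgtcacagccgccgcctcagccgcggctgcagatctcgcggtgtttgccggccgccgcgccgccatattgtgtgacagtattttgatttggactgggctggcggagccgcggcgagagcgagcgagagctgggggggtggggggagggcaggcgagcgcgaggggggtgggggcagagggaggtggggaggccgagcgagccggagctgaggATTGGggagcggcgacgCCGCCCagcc
CYLD: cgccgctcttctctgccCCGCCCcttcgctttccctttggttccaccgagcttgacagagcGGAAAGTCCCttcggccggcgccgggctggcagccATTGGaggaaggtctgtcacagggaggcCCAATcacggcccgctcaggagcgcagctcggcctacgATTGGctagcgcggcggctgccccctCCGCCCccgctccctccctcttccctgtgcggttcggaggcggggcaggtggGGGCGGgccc

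Of these windows, that of CYLD held a match to the kappa B motif, GGAAAGTCCC, at 189 to 180 bases before the start. Of all 35116 RefSeq windows of this length, 9.96% held such a match. The CHUK window held the ETS core, at 45 to 38 bases before the start, a motif found in 3.42% of windows. The TAB2 window held a GC box and a CCAAT box, which 42.6% and 32% of windows hold, and the CYLD window held 3 of each. The letters TATAAA were in none of these 3 windows and in 10.7% of all windows. RefSeq also lists other starts: the window of the other TAB2 start held the kappa B motif and those of the other CYLD starts did not, so the choice of start decides these matches. The CHUK window overlaps CHUK-DT and the CYLD window overlaps CYLD-AS1. Such matches also lay before members that did not pass: the ETS core before another start of IKBKG, and GC boxes before the start of BCL10. A match is a run of letters, and no binding was measured.

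**Figure D1:**
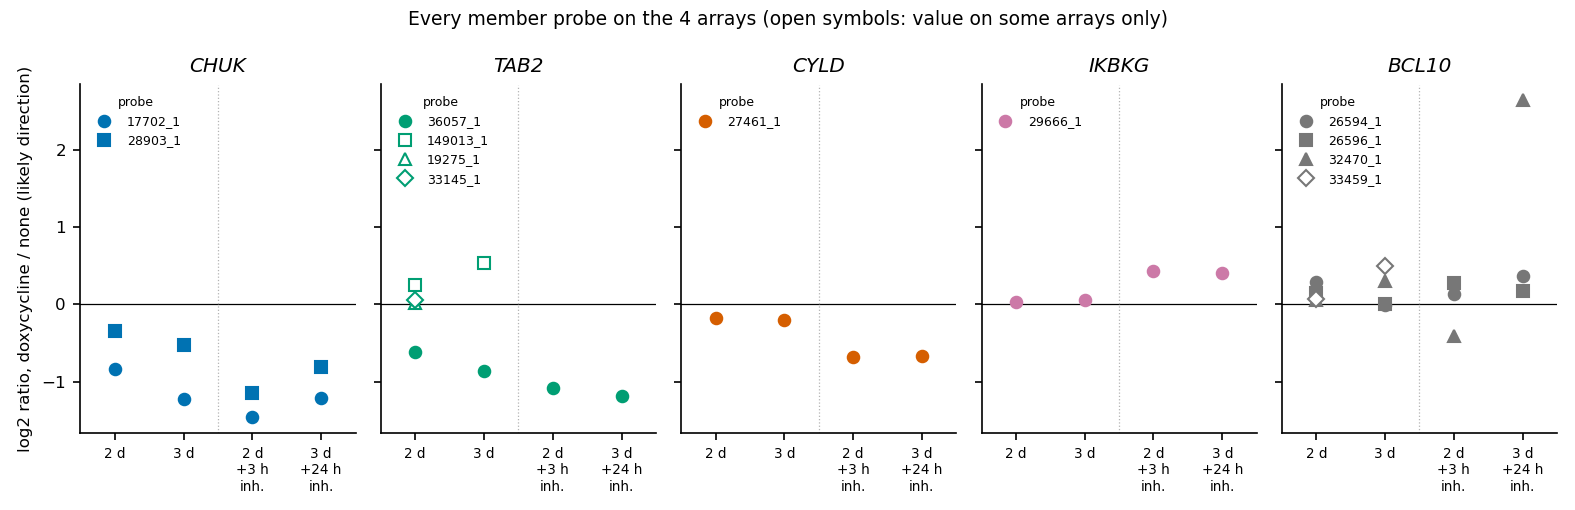
Log2 ratio of every member probe (vertical axis) on the 4 arrays (horizontal axis, days of doxycycline and hours of inhibitor), 1 panel a gene and 1 symbol a probe; open symbols mark probes with a value on some arrays only. Both CHUK probes, the CYLD probe and 1 TAB2 probe lie below 0 on every array, the other TAB2 probes lie above 0 and have no value with inhibitor, and 1 BCL10 probe reaches 2.64 on the 24 h array.

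CHUK, the hairpin's target, was measured by probes 17702_1 and 28903_1. Probe 17702_1 had log2 ratios of -0.84 at 2 days, -1.23 at 3 days, -1.45 with 3 h of inhibitor and -1.21 with 24 h. Probe 28903_1 had -0.34, -0.52, -1.14 and -0.81 in the same order. All 8 values lay below 0, and 17702_1 was the lower probe on each of the 4 arrays. The probes differed by 0.50 and 0.71 on the arrays without inhibitor and by 0.31 and 0.41 on those with it. Over the 1723 genes with 2 or more probes, the median range between probes was 0.23 and 0.28 without and 0.32 and 0.35 with inhibitor. Fitted singly among 9788 probes, 17702_1 passed without inhibitor (mean -1.03, SE 0.15, limma adjusted p = 0.0344), where 0.245% of probes passed, and 28903_1 did not (mean -0.43, SE 0.15, limma adjusted p = 0.261). With inhibitor both probes passed, at means of -1.33 and -0.98 (limma adjusted p = 0.00177 and 0.00569), where 10.0% of probes passed, 6.27% as lower. The call of 17702_1 without inhibitor rested on the 3-day array, and without that array its adjusted p was 0.767.

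As the mean of its probes, CHUK had ratios of -0.59 and -0.87 without inhibitor, and of -1.30 and -1.01 with inhibitor. Only if the base and direction are as taken do these leave 66.5% and 54.5% of the uninduced signal without inhibitor and 40.6% and 49.7% with it; turned, they would be increases. The groups of this mean did not overlap, and the 3 h array was the lowest of the 4. For probe 17702_1 alone they overlapped, at -1.23 on the 3-day array and -1.21 on the 24 h array. In the mean, the 3-day array minus the 2-day array gave -0.29, and the 24 h array minus the 3 h array gave 0.29. The later array was thus the lower without inhibitor and the higher with it, where the hours of inhibitor differed as well. With inhibitor the mean of -1.15 ± 0.20 (SD, n = 2) had a 95% interval from -1.47 to -0.84, and limma's adjusted p was 0.013. Without inhibitor the mean of -0.73 ± 0.20 had an interval from -1.05 to -0.42 and an adjusted p of 0.155. After the arrays were scaled to equal spread the adjusted p without inhibitor was 0.0321. Among 3589 genes CHUK ranked 53 and 54 from the lowest at 2 and 3 days without inhibitor, 14 with 3 h of inhibitor and 71 with 24 h. On each array other genes thus lay lower than the hairpin's target.

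TAB2, the adaptor that ties the TAK1 kinase to ubiquitin chains, gave different answers by probe. Probe 36057_1 had log2 ratios of -0.61, -0.86, -1.09 and -1.18 on the 2-day, 3-day, 3 h and 24 h arrays, each further below 0 than the one before. Probe 149013_1 had 0.25 and 0.54 on the 2-day and 3-day arrays, probe 19275_1 had 0.01 and probe 33145_1 had 0.05 on the 2-day array. These 3 probes had no value with inhibitor, so the values of TAB2 with inhibitor came from 36057_1 alone. An empty cell on both arrays with inhibitor was found for 12.9% of the probes with a value on the 2-day array, and for 4 of the 12 member probes. On the 2-day array the mean over all 4 probes was -0.07, against -0.61 for 36057_1 alone. All of these probes are annotated to the same transcript accession, and without probe sequences their position in it was not tested.

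With inhibitor TAB2 stood at -1.13 ± 0.07 (SD, n = 2; 95% interval -1.42 to -0.85; limma adjusted p = 0.00977). Without inhibitor it stood at -0.73 ± 0.17 (interval -1.02 to -0.45; limma adjusted p = 0.121), and passed with the doxycycline day as a block (limma adjusted p = 0.0369) and after scaling to equal spread (0.0146). With each probe that had a value on both arrays without inhibitor, and these arrays fitted alone, the mean became -0.17 (limma adjusted p = 0.74). TAB2 through 36057_1 ranked 46, 56, 21 and 49 from the lowest of 3589 genes on the 2-day, 3-day, 3 h and 24 h arrays. It lay near CHUK on every array, and the pair differed by a root mean square of 0.14 over the 4 arrays.

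CYLD, which removes linear and K63-linked ubiquitin chains from NEMO and its partners, had 1 probe, 27461_1. Its log2 ratio was -0.18 on the 2-day array, -0.20 on the 3-day array, -0.68 after 3 h of inhibitor and -0.67 after 24 h. The later array minus the earlier gave -0.02 without and 0.01 with inhibitor, and the groups did not overlap. CYLD ranked 677 and 1084 from the lowest of 3589 genes without inhibitor and 87 and 225 with it. The mean with inhibitor was -0.67 ± 0.01 (SD, n = 2; 95% interval -0.93 to -0.42; limma adjusted p = 0.0257), and that without was -0.19 ± 0.01 (interval -0.44 to 0.07; limma adjusted p = 0.575). The call with inhibitor was lost without either the 2-day or the 3-day array, at an adjusted p of 0.0683 in both cases, although the value itself stayed at -0.67.

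**Figure D2:**
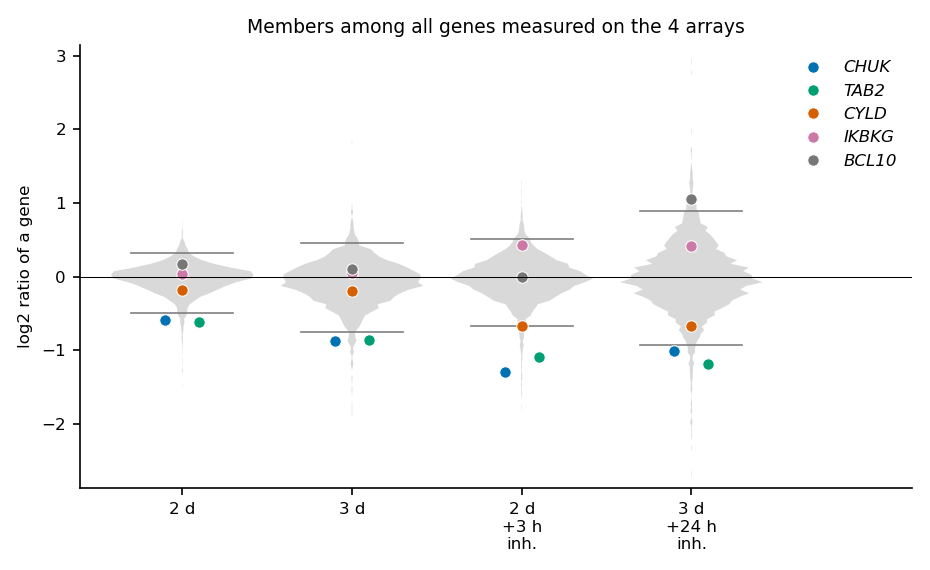
Log2 ratio of a gene (vertical axis) on each of the 4 arrays (horizontal axis); the grey shape is the distribution of 3589 genes, scaled to equal width on each array, the grey lines bound the central 95% of genes, and the dots are the members. CHUK and TAB2 lie below the lower line on all 4 arrays, CYLD lies at it on the 3 h array, and BCL10 lies above the upper line on the 24 h array.

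IKBKG, the gene of the scaffold on which both kinases sit, had 1 probe, 29666_1. Its log2 ratios were 0.04 and 0.06 without inhibitor, and 0.44 and 0.41 on the 3 h and 24 h arrays. It lay above 0 on all 4 arrays, the only other member to do so being BCL10, by 0.0027 on the 3 h array. The groups of IKBKG did not overlap. The mean with inhibitor was 0.42 ± 0.02 (SD, n = 2; 95% interval 0.17 to 0.68) with a limma adjusted p of 0.0674, and without inhibitor it was 0.05 ± 0.01 (interval -0.21 to 0.30; limma adjusted p = 0.918). With the doxycycline day as a block the adjusted p with inhibitor was 0.0221. IKBKG ranked 157 from the highest of 3589 genes on the 3 h array and 566 after 24 h, an array whose ratios were spread more widely. RefSeq lists a pseudogene of it, IKBKGP1, and whether the probe tells them apart was not tested.

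BCL10, the adaptor that works with the protease MALT1, had 3 probes on all 4 arrays and 1 on some. Probe 26594_1 had 0.29 and 0.00 without inhibitor, and 0.14 and 0.36 with it. Probe 26596_1 had 0.15 and 0.01, and 0.28 and 0.18. Probe 32470_1 had 0.06 and 0.30 without inhibitor, -0.41 after 3 h of it and 2.64 after 24 h. Probe 33459_1 had 0.07 and 0.50 on the 2-day and 3-day arrays and no value with inhibitor. The first pair stayed between 0.00 and 0.36 on every array, so the gene's high value on the 24 h array came from 32470_1. The range between BCL10 probes on that array was 2.46, and only 4 of the 767 genes with 3 or more probes, BCL10 included, had a range as large.

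Averaged over its probes, BCL10 had 0.17 and 0.10 without inhibitor, 0.00 after 3 h of inhibitor and 1.06 after 24 h, and its groups overlapped. The mean was 0.14 ± 0.05 (SD, n = 2; 95% interval -0.40 to 0.67) without and 0.53 ± 0.75 (interval -0.01 to 1.07) with inhibitor, and neither passed in limma (adjusted p = 0.877 and 0.18). Without probe 32470_1 the mean with inhibitor was 0.24. With the 3 h array left out, BCL10 rested on the 24 h array alone and passed at 1.06 (limma adjusted p = 2.57e-06), a fit in which the spread came from the 2 arrays without inhibitor. With the 24 h array left out it stood at 0.00.

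Subtracting one group from the other addresses whether the response of these genes to the hairpin depends on IKKb being blocked, and removes any dye bias that a probe has on every array. The difference, with minus without inhibitor, was -0.42 for CHUK (95% interval -0.87 to 0.02), -0.40 for TAB2 (-0.80 to -0.0018), -0.49 for CYLD (-0.85 to -0.12), 0.38 for IKBKG (0.01 to 0.74) and 0.40 for BCL10 (-0.37 to 1.16). None of the 5 passed in limma (adjusted p = 0.989 for 4 of them and 0.999 for BCL10), and 3 had an unadjusted p under 0.05 (CYLD 0.0158, IKBKG 0.0436 and TAB2 0.0492). No gene of 3589 passed, and 4.82% had an unadjusted p under 0.05. The groups did not overlap for 4 of the 5 members, 3 of them lower and 1 higher with inhibitor, where 30.6% of all genes did not overlap, 11.2% lower and 19.4% higher. For CHUK this held for the mean of its probes and for probe 28903_1, but not for probe 17702_1. After the arrays were scaled to equal spread the differences of CHUK and TAB2 shrank to -0.16 and -0.10 and that of BCL10 to 0.19, while those of CYLD and IKBKG were -0.35 and 0.31.

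**Figure D3:**
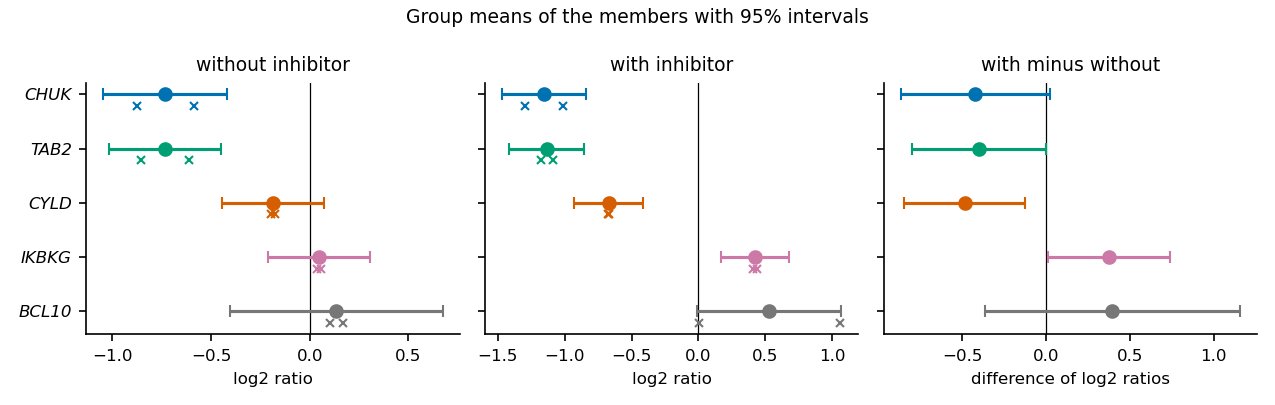
Mean log2 ratio of each member without inhibitor (left), with inhibitor (middle) and their difference (right), with horizontal bars for the 95% interval of the limma fit; crosses below the means are the 2 arrays of the group, and the 3 horizontal axes differ in range. With inhibitor the intervals of CHUK, TAB2 and CYLD lie below 0 and that of IKBKG above it, and in the right panel the intervals of CHUK and BCL10 hold 0.

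Set against each other at the same doxycycline day, the arrays with and without inhibitor gave gaps that differed between members. The inhibitor was present for 3 h at 2 days and for 24 h at 3 days, so day and length of inhibition cannot be told apart. At 2 days the array with inhibitor minus that without gave -0.71 for CHUK, -0.48 for TAB2 and -0.50 for CYLD. At 3 days the gaps were -0.14 for CHUK, -0.33 for TAB2 and -0.47 for CYLD. Those of IKBKG were 0.40 and 0.35. The gap of CHUK was thus mainly on the arrays of 2 days, and those of CYLD and IKBKG were alike on both. The gaps of BCL10 were -0.17 at 2 days and 0.96 at 3 days. Each of these gaps comes from 2 arrays, with no repeat.

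The further genes of the pathway came from 9 lists of 87 genes in all, the members included, of which 57 were on the array and 53 had a value on all 4 arrays. No probe was annotated to IKBKB, the gene of the kinase that MLN120b inhibits. With inhibitor 5 of the 53 passed, all lower: CHUK, TAB2, CYLD, TNFRSF13C and TNFAIP3. Of the 48 that are not members 2 passed, a share near the 4.57% of all genes that passed (3.04% as lower). Their median log2 ratio was -0.08, against -0.01 over all genes, and 34 of the 53 were below 0, or 64.2%, against 51.6% of all genes. Without inhibitor and in the difference 0 of 53 passed in limma, and no gene of 3589 did. At an unadjusted p under 0.05 there were 7 and 4 of the 53, against 11.1% and 4.82% of all genes. Of the 48 that are not members there were 5 and 1. Leaving out either array without inhibitor left 2 of the 5 calls, CHUK and TAB2.

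Among receptors and their adaptors, TNFRSF13C, the BAFF receptor that feeds the alternative pathway, had -0.45 and -0.49 without inhibitor and -0.92 and -0.73 with it (mean with inhibitor -0.83, SE 0.11, limma adjusted p = 0.0209). It rested on 1 probe and was the 1 of 6 measured TNF and CD40 receptor genes that passed. Of the 13 measured genes of the antigen receptor route none passed: CARD10, a CARD-domain scaffold gene, stood at 0.63 with inhibitor (adjusted p = 0.055) and the kinase SYK at -0.53 (0.066). MALT1, the partner of BCL10, stood at -0.06 without and 0.08 with inhibitor. Of the 7 genes of the Toll and interleukin 1 receptor route none passed, with the ubiquitin ligase PELI1 at -0.62 (adjusted p = 0.0572) and IRAK2, of the IRAK kinase family, at 0.43 (0.113).

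Among the ubiquitin ligases, 6 were measured and none passed, with TRAF1 at -0.33 and TRAF3 at -0.16 with inhibitor. In the TAK1 complex TAB2 was the 1 of 3 that passed. MAP3K7, which encodes TAK1 itself, had -0.05 and -0.25 without and -0.21 and -0.45 with inhibitor (mean with inhibitor -0.33, limma adjusted p = 0.139), and TAB1 had 0.12 with inhibitor (adjusted p = 0.534). In the IKK list CHUK was the 1 of 4 that passed, while the IKK-related kinases IKBKE and TBK1 stood at -0.01 and 0.05 with inhibitor. The chaperone and adaptor genes had HSP90AB1, which encodes a chaperone of the IKK complex, at -0.22 and TANK at -0.25, and none of 4 passed. Among upstream kinases MAP3K1 stood at -0.73 (adjusted p = 0.0777) and MAP3K8 at -0.55 (0.0662), and none of 4 passed.

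Of the 6 deubiquitinases and ubiquitin-binding restrainers, 2 fell: CYLD and TNFAIP3, which encodes the ubiquitin-editing enzyme A20 and is induced by NF-kB. TNFAIP3 had -0.22 and -0.44 without inhibitor and -0.63 and -1.13 with it (mean with inhibitor -0.88, SE 0.15, limma adjusted p = 0.0304), over 6 probes. The remaining members of that list, OTULIN, USP15, BRCC3 and TAX1BP1, had means with inhibitor between -0.14 and 0.37 and did not pass.

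**Figure D4:**
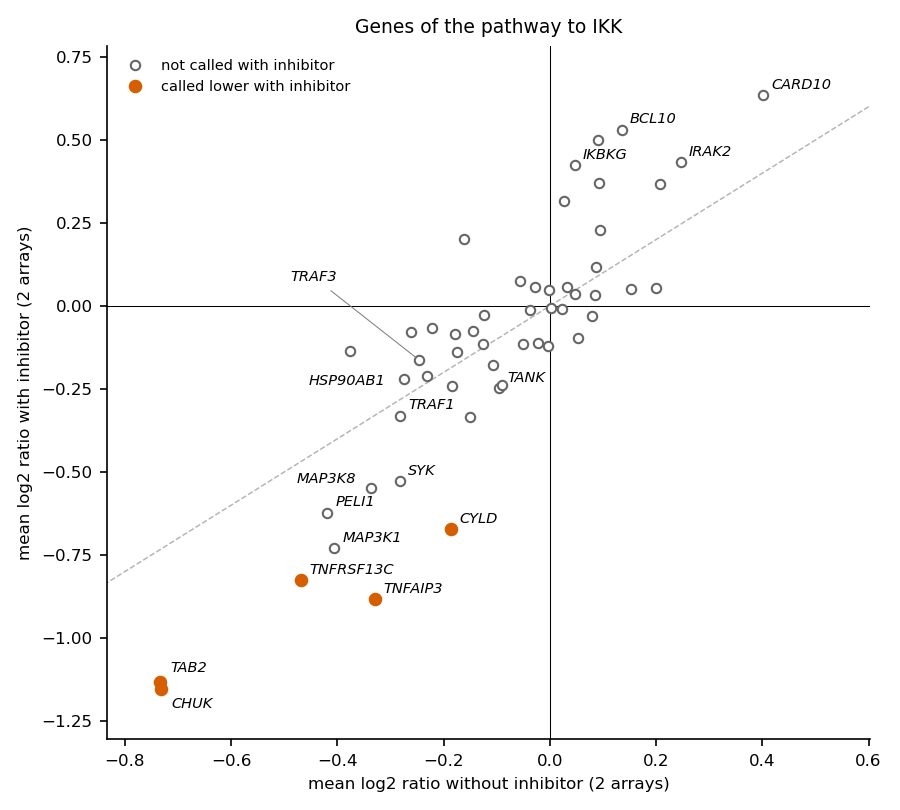
Mean log2 ratio of 53 measured pathway genes without inhibitor (horizontal axis, 2 arrays) and with inhibitor (vertical axis, 2 arrays); filled dots passed as lower with inhibitor, open dots did not pass, and the dashed line marks equal means. CHUK and TAB2 lie furthest below 0 on both axes, CYLD lies below the line, and IKBKG and BCL10 lie above it.

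The genes most like each member were those with the smallest root mean square difference of log2 ratio over the 4 arrays. For CHUK they were ABCA5 (0.09), CLOCK (0.18) and HLTF (0.20), and of all genes only ABCA5 lay nearer to it than TAB2 did. For TAB2 they were ABCA5 (0.08), MCM4 (0.12) and ANKRD17 (0.13). All 5 of these genes rested on 1 probe each and passed as lower with inhibitor. For CYLD they were ARID4B, ERCC4 and MREG (0.10, 0.10 and 0.11), which passed as lower with inhibitor as well, at limma adjusted p-values of 0.0316, 0.0326 and 0.0432. For IKBKG they were COL4A1 (0.04), XKR6 (0.05) and NLK (0.05), none of which passed. For BCL10 they were SIPA1L1 (0.07), TAF4 (0.11) and GSTT1 (0.11), each of which likewise stood high on the 24 h array, at 0.98, 0.90 and 1.06.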

How the data were processed

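The values are those deposited by the authors: 1 log2 ratio of the channels per probe and array, with the base taken as 2 from the range of -5.61 to 7.49. How background, dyes and dim spots were treated is not given here in any label or header. Array medians lay between -0.007 and 0. Of 15246 probes, 10169 had 1 gene symbol, 4 several and 5073 none. Of those with 1 symbol, 10128 were matched by gene identifier to RefSeq and carry its symbol, whether or not it differed. Probes with a value on all 4 arrays were kept (9788, of which 6796 had 1 gene), and probes of a gene were averaged (3589 genes).

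One limma 3.58.1 model (R 4.3.3, eBayes, 2 residual and 4.98 prior degrees of freedom) gave a mean per group and their difference, two-sided, with Benjamini-Hochberg adjustment over all genes. Single probes were fitted likewise. The fit was tested on simulated data. These held true repeats in each group with independent noise, unlike the different time points here, so they do not vouch for the calls. The members and lists were chosen with earlier results of these data known. Named genes are the members, pathway genes that passed, otherwise the 2 per list with the largest mean over 4 arrays, MALT1, MAP3K7, TAB1, IKBKE, TBK1 and the last 4 restrainers (chosen after their values were seen), and the 3 genes nearest each member. Alternatives were median centring, equal spread (normalizeMedianAbsValues), a looser rule on empty cells (1 array a group sufficing), single probes, probe medians, the doxycycline day as a block, a robust prior, an adjusted p under 0.10 and each array left out. A fit of the arrays without inhibitor alone and one without BCL10 probe 32470_1 were added after seeing the data. The number of arrays limits the precision.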

Additional observations from a re-analysis of the deposited data

How the results depend on the processing

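Without inhibitor, CHUK passed in limma after scaling to equal spread (-0.85) and as single probe 17702_1 (-1.03), and spanned -0.87 to -0.59 with 1 array left out. CHUK also passed with these arrays fitted alone and without either array with inhibitor (-0.73 in each). In the fit of these arrays alone all members had the same SE (0.157), so the spread of CHUK itself did not enter. TAB2 passed after scaling (-0.86), with the doxycycline day as a block and without either array with inhibitor (-0.73 in each), and spanned -0.86 to -0.61. With inhibitor, IKBKG passed with the day as a block and at an adjusted p under 0.10 (0.42 in both), CYLD did not pass without the 2-day or the 3-day array (-0.67 in both; -0.68 to -0.67 over the 4 omissions), and BCL10 spanned 0.0027 to 1.06. The BCL10 difference was 0.92 without the 3 h array and turned sign without the 24 h array (-0.13). Probe 32470_1 stood at -0.41 on the 3 h array and at 2.64 on the 24 h array, and the cause of that was not tested. Without this probe the BCL10 difference over all arrays was 0.13. In the scaled fit the difference of CHUK probe 17702_1 was 0.044 and that of BCL10 probe 26594_1 was -0.032. With 1 array left out BCL10 probe 26594_1 spanned -0.002 to 0.294 without inhibitor and -0.045 to 0.251 in the difference, and probe 32470_1 spanned -0.41 to 2.64 with inhibitor and -0.59 to 2.46 in the difference. The centred, probe-median and robust fits changed no member gene's call. Without inhibitor 0 genes were called in the main setting, 135 after scaling, 56 with the day as a block, 6 at an adjusted p under 0.10, 24 probes of 9788 in the fit of single probes, 189 with these arrays alone and 0 to 231 with 1 array left out. For pathway genes 0 became 2 after scaling, 1 with the block, 1 with these arrays alone and 0 to 4 with 1 array left out. With inhibitor 164 genes became 908 with the block, 590 at 0.10, 979 probes in the fit of single probes and 34 to 858 with 1 array left out, and 5 pathway genes became 15, 13 and 2 to 13. For the difference, 0 became 4 under the looser rule on empty cells and 0 to 119 with 1 array left out, and for pathway genes 0 to 2. Beyond the doxycycline day as a block no paired analysis was possible because the labels give no replicate numbers. With 1 array left out, the lone array of a group was assumed to vary like the other group. Without either array with inhibitor, all members had the same SE (0.139 without and 0.197 with inhibitor). The calls of those fits, and of the arrays without inhibitor alone, thus do not weigh a gene's own spread. The main fit weighs it only in part, with 2 residual against 4.98 prior degrees of freedom. Signal over background is unknown, so how dim a probe was could not be weighed.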
